A study of Mus musculus with 24 samples.

Results

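Messenger RNA for 9 integrin genes was followed through the cells of Panc02 tumors: Itgb7, Itgb1, Itgax, Itgae, Itga1, Itga4, Itgal, Itgb2, and Itgav. They are 9 of the 32285 genes in the count matrix, and 17 further integrin genes were measured beside them. The members were chosen by name as integrins of T cell homing and residency, and Itgb7, Itgb1, and Itgax were among them because their levels in CD8+ T cells were higher with the vaccine. Values in CD8+ T cells with and without the vaccine are therefore described here without a test. Higher Itgb7 in CD4+ T cells with the vaccine was also known when the genes were chosen, and its values there are described without a test. Itgb7, Itgb1, and Itgax are described without a test too where CD8+ T cells are set against another gate. The same holds between CD8+ states and between clones, since the same CD8+ values enter. Itgb7 in Tregs against helper cells is also described without a test, since the known helper cell values enter. The other comparisons were tested.

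Integrins are adhesion receptors made of 1 alpha and 1 beta chain. T cells use them to leave the blood, to hold on to matrix and to other cells, and to stay in a tissue, and which alpha chain meets which beta chain sets the ligand. The chains rest in a bent, closed form until signals inside the cell, through Rap1, talin, and kindlin, open them.

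Itgb7 (chr15:102215994-102233405) encodes the beta7 chain, which with alpha4 binds MAdCAM-1 on gut vessels and with alphaE binds E-cadherin on epithelium. Itgb1 (chr8:128685654-128733579) encodes beta1, the common partner of alpha4 in VLA-4 and of alpha1 in the collagen receptor VLA-1. Itgb2 (chr10:77530329-77565708) encodes beta2, the partner of alphaL and alphaX. Of the alpha chains, Itga4 (chr2:79255426-79333114) encodes alpha4, Itgae (chr11:73090505-73147449) alphaE or CD103, a marker of tissue-resident T cells, and Itga1 (chr13:114958079-115101964) alpha1 or CD49a. Itgal (chr7:127296139-127335137) encodes alphaL of LFA-1, the receptor for ICAM-1, and Itgax (chr7:128129526-128150657) encodes alphaX or CD11c, best known from dendritic cells and macrophages. Itgav (chr2:83722303-83806917) encodes alphaV, which joins several beta chains and takes part in the release of active TGF-beta. Positions are those of RefSeq on GRCm38.p6.

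Promoter windows of 300 bases are shown for Itgb7, Itgb1, and Itgax, the genes with the widest differences in CD8+ T cells. Each runs 5′ to 3′ on the strand of the gene, from 250 bases before to 50 after the start site that RefSeq gives on GRCm38.p6, and capitals mark the RUNX core TGTGGT, or ACCACA on the other strand, where it occurs. The starts of Itgb7 and Itgax, and that of Itgav searched below them, lie inside the gene spans given above, not at their outer ends. The windows lie at chr15:102231886-102232185 on the minus strand, chr8:128685404-128685703 on the plus strand, and chr7:128129300-128129599 on the plus strand.
Itgb7: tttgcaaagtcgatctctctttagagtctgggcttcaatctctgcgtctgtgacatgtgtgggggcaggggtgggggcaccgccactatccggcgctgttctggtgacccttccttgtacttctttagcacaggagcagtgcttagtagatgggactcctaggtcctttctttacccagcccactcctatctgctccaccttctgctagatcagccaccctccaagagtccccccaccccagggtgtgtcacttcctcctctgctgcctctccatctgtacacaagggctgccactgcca
Itgb1: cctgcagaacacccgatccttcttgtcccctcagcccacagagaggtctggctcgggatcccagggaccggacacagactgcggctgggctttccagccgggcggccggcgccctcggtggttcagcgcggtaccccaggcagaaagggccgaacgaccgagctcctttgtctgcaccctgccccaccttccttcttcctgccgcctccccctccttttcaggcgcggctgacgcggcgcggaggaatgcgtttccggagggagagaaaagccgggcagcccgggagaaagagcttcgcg
Itgax: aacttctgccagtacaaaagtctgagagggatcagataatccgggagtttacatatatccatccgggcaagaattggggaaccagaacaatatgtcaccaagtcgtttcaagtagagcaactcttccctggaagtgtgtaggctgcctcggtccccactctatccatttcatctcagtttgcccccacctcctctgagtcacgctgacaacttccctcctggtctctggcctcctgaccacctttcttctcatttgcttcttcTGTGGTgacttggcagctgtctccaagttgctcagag

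Windows of 6 members, with Itga1, Itga4, and Itgav, were searched on both strands. The RUNX core was found in Itgax, 14 bases after the start site, and in Itga4, 60 bases before it, and 16.8% of all 32851 windows hold it. The SP/KLF box GGGCGG, held by 35.7% of windows, was found in Itgb1, Itga4, and Itgav, and the SMAD box CAGACA, held by 21.0%, in Itgb1 and Itga4. None of the 6 windows held the ETS core CCGGAAGT, the ISRE-like core, or the NF-kB core.

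Panc02 is a pancreatic tumor line that was grown under the skin of male C57BL/6 mice of 6 to 7 weeks. PancVAX and the antibodies anti-CTLA-4 and anti-PD-1 were each given or left out, which makes 8 treatments, and the groups were Isotype Control, Anti-PD-1, Anti-CTLA-4, Anti-PD-1 + Anti-CTLA-4, and the same 4 with PancVAX. PancVAX is a mix of tumor neoantigen peptides and was given on days 12 and 19 at 50 ug, an amount that the methods state for each peptide. By the methods it was given with AddaVax and a STING agonist, against PBS without it, so that effects of the peptides and of the adjuvants cannot be told apart. Anti-CTLA-4 was given at 100 ug on days 15 and 22 and anti-PD-1 at 100 ug from day 12, isotype antibodies stood in for those not given, and tumors were taken on day 38. Tumors were pooled by treatment, and each treatment gave 1 library of whole tumor and 1 separated on Percoll, a density step that enriches leukocytes. The preparations were sequenced as separate batches, and preparation and batch cannot be told apart. Both libraries of a treatment were summed into a pool, so that 4 pools with PancVAX stand against 4 without. Each treatment has 1 pool. In tests of an agent the P value therefore rests on the spread between pools that the additive factors leave, and joint effects of the agents enter that spread. In tests with the pool, treatment, or library as a block, it measures how steady a difference is within the blocks.

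The 16 libraries held 77132398 to 176233225 UMIs, and 57355 of 144994 barcodes passed the limits on genes, UMIs, mitochondrial share, and hemoglobin, with 1793 to 7413 cells per library. The Percoll library of PancVAX + Anti-PD-1 had the most cells and the lowest share of cells with Ptprc, the leukocyte marker CD45, at 40.8% against 62.3% in its whole tumor library. The Percoll library of PancVAX was also slightly below its whole tumor library (57.5% and 58.5%), and the other 6 were above theirs. No pair of libraries shared more than 1.26% of the barcodes of the smaller library. Cells were assigned to 15 gates on marker genes that are no integrins. The 3578 cells (6.24%) that met more than 1 gate were left out, which with the upper limits was the only treatment of doublets. The gates held 10263 CD8+ T cells, 1093 CD4+ helper T cells, 478 Tregs, 435 NK cells, 10896 macrophages, 4163 neutrophils, and smaller myeloid, B, tumor, stromal, and endothelial gates. The NK gate does not separate other innate lymphocytes. Levels are the UMIs of a gene scaled to the same total of UMIs in every gate and pool (CPM). Reads come from the 5′ end of transcripts, and levels are compared for a gene between cells, not between genes.

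Each integrin had its own order of cell types. Itgb7 was highest in Tregs (532 ± 97.8 CPM, SD, n = 8 pools), followed by CD4+ helper T cells (323.5 ± 139.1), NK cells (263.3 ± 53.5), cDC2 (232.2 ± 41.0), and CD8+ T cells (170.9 ± 115.6). Neighbors in this order overlapped in range down to B cells (74.0 ± 14.6), and mature DCs, neutrophils, macrophages, and the gates without Ptprc lay between 0.75 and 10.9 CPM. With PancVAX the mean of helper cells (435 ± 71.5) was above that of NK cells (285 ± 44.8). Without it the mean was below (212 ± 81.7 and 242 ± 58.4), with overlapping ranges. Itgb1 was highest in endothelial cells (639 ± 119) and stromal cells (530 ± 274) and among leukocytes in NK cells (518 ± 82.9), whereas Tregs had 117 ± 24.4. The means of both genes cover pools with and without PancVAX. With it the mean of Itgb1 in CD4+ helper T cells (615 ± 64.8) was above that of NK cells (572 ± 69.6), with overlapping ranges. Without it the mean was below (297 ± 23.6 and 464 ± 59.1). These orders were not tested. Itgb2 lay between 193 and 343 CPM in T cells, NK cells, and most myeloid gates, and at 50.5 ± 11.6 in B cells.

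The alpha chains divided the cells further. Itgae was high in Tregs (235 ± 57.7), cDC1 (222 ± 59.9), and cDC2 (145 ± 46.2), and the next gate, CD4+ helper T cells, reached 28.7 ± 12.1, with ranges apart. Itga1 was found in endothelial cells (171 ± 66.0), stromal cells (85.4 ± 104), CD8+ T cells (72.2 ± 10.2), and NK cells (50.6 ± 18.9), with neighbors overlapping throughout. Itgav was at 611 ± 160 CPM in Tregs, apart from the 189 ± 96.0 of CD4+ helper T cells and the 144 ± 44.9 of CD8+ T cells. Itgax was at 244 ± 52.3 in cDC2, 238 ± 34.1 in macrophages, and 212 ± 34.6 in neutrophils. NK cells had 144 ± 23.6 of Itgax and CD8+ T cells 19.4 ± 16.4. Itgal was highest in NK cells (273 ± 59.5), and Itga4 in mature DCs (432 ± 129, n = 7 pools with 10 cells or more).

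**Figure D1:**
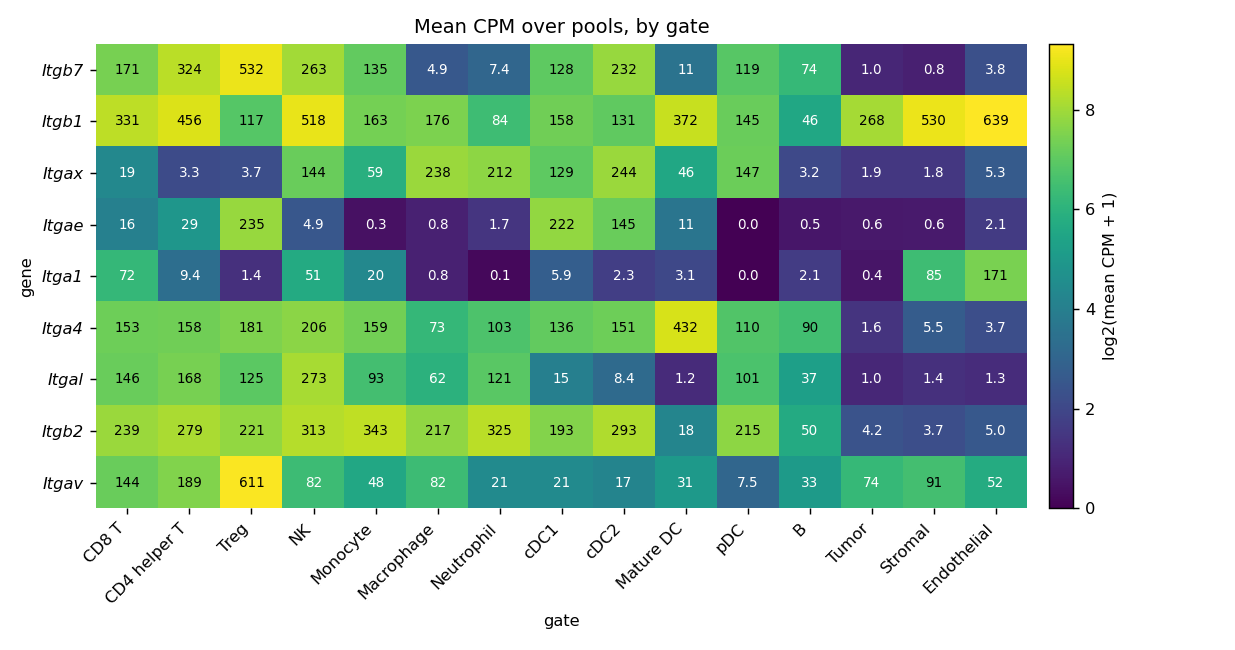
Mean CPM of each integrin gene (rows) in each gate (columns) over the pools with at least 10 cells, printed in the cell and colored by log2(mean CPM + 1). Itgav stands out in Tregs, Itgae in Tregs, cDC1, and cDC2, Itga1 in CD8 T, NK, stromal, and endothelial cells, and Itgax in myeloid and NK cells.

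Tregs and CD4+ helper T cells differed in several integrins. A gene was called where the edgeR quasi-likelihood test gave a Benjamini-Hochberg adjusted P below 0.05 over all genes and a log2 difference above 0.5 in size. Itgae, Itgav, Itgb1, Itgal, and Itga1 were called, against 12% of the 8301 genes tested, and Itgb7 is described without a test. Itgae lay between 139 and 328 CPM in Tregs (median 230) and between 3.54 and 41.6 in helper cells (median 32.4), a log2 difference of 2.93 (SE 0.20, adjusted P = 1.5e-23). Itgav was higher in the Tregs of 8 of 8 pools (1.67, SE 0.18, adjusted P = 1.45e-13), and Itgb7, without a test, also in 8 of 8 (0.59, SE 0.20). Itgb1 was lower in the Tregs of all 8 pools, at 77.8 to 155 CPM against 262 to 694 (log2 difference -2.11, SE 0.20, adjusted P = 1.66e-15). Tregs thus carried more of the alphaE and alphaV messages and less of the beta1 message. Itgal was lower by a smaller margin (-0.52, SE 0.17, adjusted P = 0.0227). Itga1 rested on 2 UMIs in Tregs against 51 in helper cells, a ratio of 0.0928 with an exact 95% interval for counting error of 0.0109 to 0.353. Single pools carried some of these calls. Itgal was not called without the Anti-CTLA-4, the PancVAX + Anti-CTLA-4, or the PancVAX + Anti-PD-1 + Anti-CTLA-4 pool. Itga1 was not called without any 1 of the 3 pools that joined PancVAX with an antibody. Over the alternatives the log2 difference of Itgb7 was 0.42 to 0.74. Itgal was also lost by DESeq2, without TMM factors, and in Percoll libraries alone, and Itga1 in Percoll libraries alone.

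CD8+ T cells differed from CD4+ helper T cells in 2 of the 6 genes tested (13.3% of all genes). Itga1 was at 57.0 to 83.3 CPM in CD8+ T cells (median 77.3) and at 0 to 23.6 in helper cells (median 7.73), with no overlap (log2 difference 2.69, SE 0.31, adjusted P = 2.52e-12). Itgae was lower in CD8+ T cells (-0.70, SE 0.21, adjusted P = 0.00987). Without a test, Itgax was at 34.7 ± 3.21 CPM in CD8+ and 5.51 ± 4.94 in helper cells with PancVAX and at 4.18 ± 0.46 and 1.14 ± 2.27 without, and Itgb7 was below the helper cell level in each of the 8 pools. Without the Anti-PD-1 pool, without the Anti-PD-1 + Anti-CTLA-4 pool, or in either preparation alone, Itgae was no longer called.

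Against NK cells, CD8+ T cells differed in 3 of the 6 genes tested (17.2% of all genes). Itgal was lower in the CD8+ T cells of all 8 pools (-0.70, SE 0.14, adjusted P = 3.17e-05), while Itgav (0.95, SE 0.22, adjusted P = 0.000513) and Itgae (1.73, SE 0.50, adjusted P = 0.00534) were higher. In whole tumor libraries alone Itgav and Itgae were lost, Itgae also with no upper limits on UMIs and genes. Without a test, Itgax was at 120 to 173 CPM in NK cells and at 3.62 to 38.4 in CD8+ T cells. Itgb7 was at 285 ± 44.8 in NK cells with PancVAX, near the 278.5 ± 15.2 of CD8+ T cells, and at 242 ± 58.4 against 63.3 ± 7.36 without.

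The myeloid gates were set against macrophages. Monocytes were called in 7 of 9 genes (30.2% of all genes): Itgb7 was higher by a log2 of 4.79 (SE 0.28, adjusted P = 3.36e-30) and Itga1 by 4.53 (SE 0.57, adjusted P = 5.34e-11), and Itga4, Itgb2, and Itgal were also higher. Itgax was lower, at 58.5 ± 23.1 against 238 ± 34.1 CPM (log2 -2.05, SE 0.27, adjusted P = 1.49e-10), and so was Itgav. Neutrophils were called in 6 (57.5% of all genes), with Itgal, Itgb2, Itga4, and Itgae higher and Itgav and Itgb1 lower, and CD8+ T cells in 5 of the 6 genes tested (57.1%), all higher. Itgb2 in monocytes was not called without the PancVAX pool, Itgal in monocytes not without the PancVAX, Anti-PD-1, Isotype Control, or Anti-PD-1 + Anti-CTLA-4 pool, and Itgae in neutrophils, on 14 UMIs, not without the PancVAX, PancVAX + Anti-PD-1, PancVAX + Anti-CTLA-4, or Anti-PD-1 + Anti-CTLA-4 pool. In whole tumor libraries alone, and with no filter on low counts, Itgb2 and Itgal in monocytes and Itga4 and Itgae in neutrophils were not called. Itgal and Itgae were also lost in Percoll libraries alone, Itgal with no upper limits on UMIs and genes, and Itga4 and Itgae without TMM factors. Between the DC gates 4 genes were called (22.8% of all genes). Itgae was higher in cDC1 than in cDC2 (0.60, SE 0.18, adjusted P = 0.00793), and Itgax (-0.94), Itgb7 (-0.91), and Itgb2 (-0.60) were lower. Itgax lost its call without the PancVAX + Anti-PD-1 pool, and Itgb2 without the Anti-CTLA-4 or the PancVAX + Anti-PD-1 + Anti-CTLA-4 pool. Itgae was not called by DESeq2 or in Percoll libraries alone, where its log2 difference was 0.16, nor was Itgb7 in Percoll libraries alone. Itgax and Itgb2 were lost in whole tumor libraries alone, Itgb2 also with no upper limits on UMIs and genes.

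In CD8+ T cells, the pools with and without PancVAX did not overlap for 6 of the 9 genes, 5 higher and 1 lower with the vaccine. The same held for 26.5% of the 11037 genes tested, 18.1% higher and 8.47% lower, and since this contrast chose members, nothing is read from the count. Beta7 led the beta chains. Itgb7 was at 300.2 CPM with PancVAX alone, 264 with anti-PD-1 added, 274 with anti-CTLA-4 added, and 275 with both. Without the vaccine it was at 74.3 in Isotype Control, 58.8 in Anti-PD-1, 60.2 in Anti-CTLA-4, and 59.9 in Anti-PD-1 + Anti-CTLA-4. The means were 278.5 ± 15.2 and 63.3 ± 7.36 (SD, n = 4 pools each), a log2 difference of 2.12. Log2 differences between CD8+ pools with and without PancVAX compare the means after 1 CPM was added to each. This makes them smaller where levels are low, and they are not estimates of a fit. Every vaccinated pool stood far above every other pool, among which Isotype Control was highest.

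Itgb1 was at 470.3, 457, 556, and 467 CPM with PancVAX alone, with anti-PD-1, with anti-CTLA-4, and with both. Without PancVAX it was at 157, 171, 173, and 197 in the same order of antibodies (log2 difference 1.48). The pool of PancVAX + Anti-CTLA-4 stood above the other vaccinated pools. Itgb2 was at 230.5 to 281 with the vaccine and 205 to 226 without (log2 difference 0.25), groups that lay close together and overlapped in the Percoll libraries alone, with a mitochondrial limit of 5%, and with no upper limits on UMIs and genes.

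Itgax had the widest relative difference of the alpha chains. It was at 38.4, 36.1, 32.9, and 31.3 CPM with PancVAX alone, with anti-PD-1, with anti-CTLA-4, and with both, against 3.62, 4.17, 4.74, and 4.20 without PancVAX. This is a log2 difference of 2.78 at a low level. Itgae was at 16.1 to 25.0 with the vaccine and at 8.11 to 12.8 without (log2 0.92). Itgav went the other way, at 104, 94.2, 88.1, and 134 with the vaccine against 160, 201, 177, and 191 without (log2 -0.79). The remaining alpha chains overlapped: Itga1 at 76.6 to 83.3 against 57.0 to 78.1, Itgal at 143 to 175 against 129 to 145, and Itga4 at 139 to 164 against 148 to 157.

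With no upper limits on UMIs and genes the levels moved, with Itgb7 at 173 ± 14.0 and 42.3 ± 8.36 CPM (log2 2.01), Itgax at 21.0 ± 3.43 and 2.77 ± 0.23 (log2 2.55), Itgae at 12.8 ± 2.57 and 5.29 ± 0.77 (log2 1.13), Itgb1 at 385 ± 33.9 and 192 ± 7.76 (log2 1.00), and Itgav at 108 ± 8.52 and 148 ± 19.6 (log2 -0.45). The pools still did not overlap for these 5 genes.

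**Figure D2:**
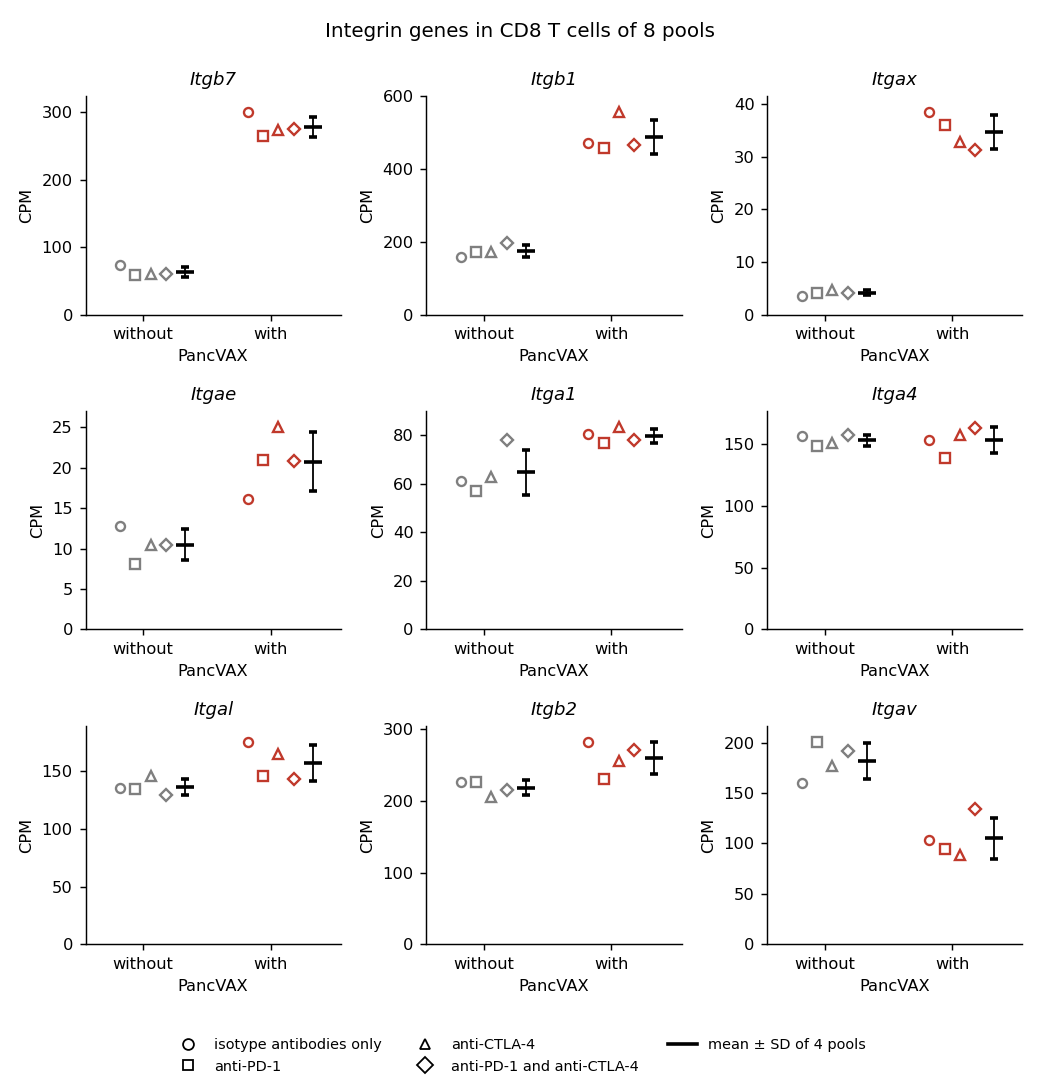
CPM of the integrin genes in CD8 T cells, 1 panel per gene, with the 4 pools without PancVAX in gray and the 4 with it in red, symbols for the antibodies, and the mean ± SD beside them. Itgb7, Itgb1, and Itgax separate widely, Itgav is lower with PancVAX, and Itga4 lies on the same level.

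Cells of other types that could bring Itgax into the CD8+ gate were measured beside it. Over 10 macrophage markers, the summed level in the CD8+ gate was 212 to 285 CPM with PancVAX and 204 to 242 without, with 9 of 10 higher on average and none at 0. Over 8 DC markers it was 3.86 to 6.16 and 3.73 to 6.83, with 4 of 8 higher. The 6 NK markers summed to 93.6 to 123 with PancVAX and 178 to 235 without, with 1 higher and 5 lower on average. The 7 neutrophil markers, all higher on average, summed to 128 to 204 and 72.9 to 134. The 5 stromal markers were also all higher, with sums of 30.3 to 111 and 16.0 to 50.4. The 5 tumor markers summed to 52.3 to 160 and 26.3 to 68.4, with 4 of 5 higher. The 7 T cell markers summed to 5033 to 5863 with PancVAX and 6502 to 6811 without, with 5 of 7 lower. The 5 B cell markers summed to 24.4 to 54.2 and 59.5 to 70.3, with 2 higher and 3 lower on average. Neither sum overlapped between the groups. Klre1 (81.6 ± 18.6 and 177 ± 29.6) made up most of the NK sum, and Ighm (31.3 ± 11.5 and 61.4 ± 5.64) most of the B cell sum. Per 100 UMIs of Csf1r, the macrophage growth factor receptor, the CD8+ gate held 861 of Itgax with PancVAX and 140 without, whereas macrophages held 32.8 and 40.7 and neutrophils 315 and 356. In cDC1 the ratio was 844 and 1329 and in NK cells 4900 and 2017, on 2 to 16 UMIs of Csf1r in each group of these gates. The part of these cells in the Itgax level was not tested. In cells thinned to 1500 UMIs, Itgax was seen in 5.68% of CD8+ T cells with PancVAX (5.34% to 6.05% per pool) and in 0.68% without (0.554% to 0.84%). In B cells it was seen in none of 797 thinned cells with PancVAX, which allows up to 0.376% of such cells to hold a UMI of it and sets no limit on cells that express it, and in 0.76% without, and in CD4+ helper T cells in 0.671% and 0.333%. Unthinned, the shares in CD8+ T cells were 11.1% and 1.78%, at median depths per library of 3095 to 3967 UMIs with the vaccine and 4195.5 to 5544 without. Median depth was 2042 UMIs in B cells and 3370 in helper cells.

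Chains of a known pair were also counted in the same thinned cells. Itgb7 was detected in 33.8% of CD8+ T cells with PancVAX and 9.63% without, against 0.943% and 0.491% in macrophages, and Itgb1 in 47.6% and 22.2%. Itga4 together with Itgb7 was found in 5.96% and 1.47% of the cells, with pools at 4.99% to 7.58% and 1.17% to 2.03%. The collagen receptor pair Itga1 and Itgb1 was at 6.15% and 2.50%, with Itga1 alone at 11.7% and 9.65%. The share of a pair rises with the share of either chain, and no expected share was set beside these values. Itgae with Itgb7 was at 1.39% and 0.517%, and in Tregs at 17.2% and 15.4%. Itgav was detected in 11.0% and 21.8%, but its pair with Itgb1 in 4.11% and 5.14%, with overlapping pools. Joint detection in a cell does not show that the chains meet.

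The mix of CD8+ T cell states also differed between the groups. States were set on genes that are no integrins, in this order. Cycling cells held at least 2 UMIs of Mki67 and Top2a together, and terminally exhausted-like cells Pdcd1 and Havcr2. Stem-like cells held Pdcd1 and Tcf7 without Havcr2. Naive-like cells held Ccr7 or Lef1 without Pdcd1 and Havcr2. Effector-like cells held Ly6c2 and Ccl5 without Pdcd1, Havcr2, Ccr7, and Lef1. A gene missed in a shallow cell counts as absent. Median depth per library was 3095 to 3967 UMIs with PancVAX and 4195.5 to 5544 without. The part of depth in the shares and levels of states was not tested. Effector-like cells were 29.2% ± 3.65 of the CD8+ gate with PancVAX and 5.54% ± 1.05 without, and terminally exhausted-like cells 4.32% ± 0.38 and 10.1% ± 1.83 (SD, n = 4 pools). Cells of no state were 39.5% ± 4.51 and 58.3% ± 4.67. Levels were therefore given within each state too. Itgb7 did not overlap between the groups in any of the 5 states or in the cells of none of them. In effector-like cells it was at 403 ± 35.4 and 152 ± 21.9 CPM, in naive-like cells at 322 ± 18.8 and 179 ± 21.5, and in terminally exhausted-like cells at 94.8 ± 18.6 and 26.6 ± 10.8.

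Itgb1 likewise stood apart within every state, from 667 ± 65.0 and 314 ± 43.5 CPM in effector-like cells to 250 ± 97.0 and 128 ± 18.4 in terminally exhausted-like cells. Itgax was at 53.2 ± 4.84 and 11.8 ± 10.2 in effector-like cells and overlapped between the groups in terminally exhausted-like cells. In stem-like cells 47 UMIs of Itgax were counted with PancVAX and none in the 91 cells without it. At a floor of 3 counts over the group this is at least 6.11-fold higher. Itgav was at 272 ± 43.8 and 261 ± 12.5 in terminally exhausted-like cells, where the groups overlapped, and at 30.3 ± 5.69 and 56.0 ± 11.7 in effector-like cells, where they did not. In naive-like cells Itga1 was at 57.3 ± 12.6 and 8.61 ± 3.98, and Itga4 at 98.1 ± 19.6 and 45.6 ± 11.2, again with pools apart. Of the 9 genes, 5 did not overlap in naive-like cells, 7 in effector-like, 6 in stem-like, 2 in terminally exhausted-like, and 5 in cycling cells, and 3 in the cells of no state, against 10.1%, 13.6%, 6.12%, 6.25%, 12.9%, and 17.3% of all genes. As in the whole gate, nothing is read from these counts.

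**Figure D3:**
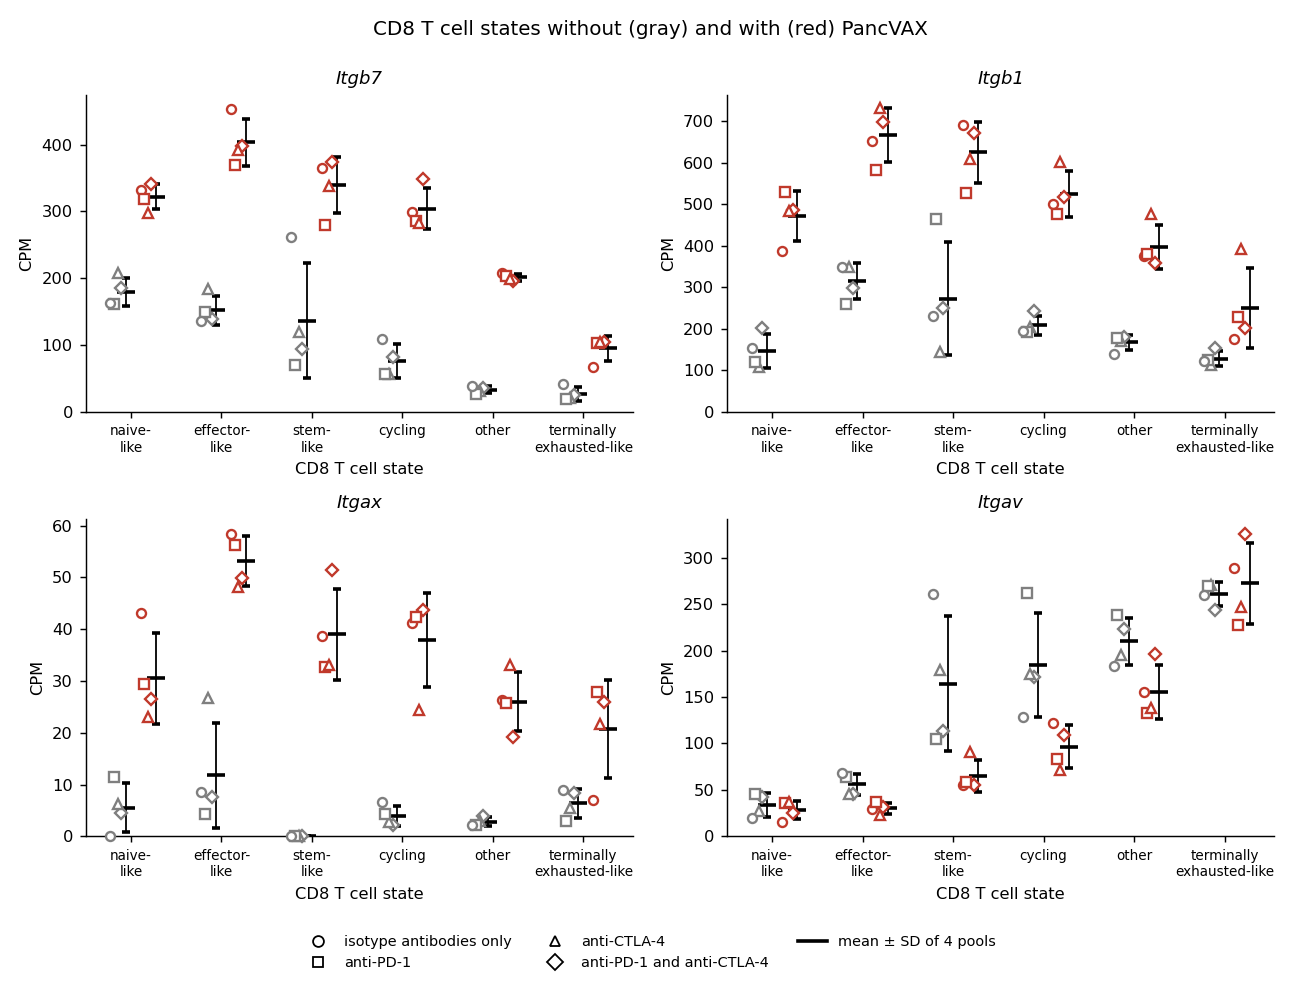
CPM of Itgb7, Itgb1, Itgax, and Itgav in 6 classes of CD8 T cells (x axis), with pools without PancVAX in gray and with PancVAX in red, antibodies as symbols, and mean ± SD. Itgb7 and Itgb1 are higher with PancVAX in every class, whereas Itgav in terminally exhausted-like cells lies near 260 CPM in both groups.

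Of 4 pairs of states set against each other within the same pools, terminally exhausted-like and effector-like cells come first. Itgav, Itga4, and Itgae were called between them, against 17.4% of 7565 genes. Itgb7, Itgb1, and Itgax are described without a test in all pairs, since the CD8+ values that chose them enter. The pairs were not compared by a test. Itgav was at 267 ± 30.4 CPM in terminally exhausted-like cells and 43.1 ± 16.2 in effector-like cells, higher in 8 of 8 pools with ranges apart (log2 difference 2.71, SE 0.16, adjusted P = 4.62e-19). Itga4 was also higher (0.66, SE 0.12, adjusted P = 2.88e-05). Without a test, Itgb7 was lower in all 8 pools, at 60.7 ± 39.1 against 278 ± 137 (log2 -2.24, SE 0.21), and so was Itgb1 (-1.38, SE 0.12). Itgae was lower in 8 of 8 pools on 20 UMIs against 164 (-1.89, SE 0.45, adjusted P = 0.00108), and Itgax, without a test, in 6 of 8 pools (-1.11, SE 0.27). Itgae lost its call in the Percoll libraries alone.

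Stem-like cells share Pdcd1 with the terminally exhausted-like cells, and of the genes tested Itgav and Itgb2 were called between them (8.79% of all genes). Without a test, Itgb7 was higher in stem-like cells in 8 of 8 pools (log2 1.94, SE 0.25), and Itgb1 in 8 of 8 (1.20, SE 0.13). Itgav was lower in 7 of 8 pools, at 115 ± 72.3 against 267 ± 30.4 CPM (-1.42, SE 0.18, adjusted P = 3.45e-08), and so was Itgb2 (-0.51, adjusted P = 0.000318). Cycling cells were called against terminally exhausted-like cells in Itgav (-1.06), Itga1 (-0.55), and Itga4 (-0.51), all lower (19.8% of all genes). Without a test, Itgb7 and Itgb1 were higher there by 1.56 and 0.83. Naive-like cells were called against effector-like cells in Itga1 (-1.10, SE 0.21, adjusted P = 0.000172) and Itga4 (-0.61), both lower (4.84% of all genes). Itgax (-0.70) and Itgb1 (-0.59) were also lower in naive-like cells, without a test. Itgb2 in stem-like cells lost its call without the PancVAX + Anti-PD-1 + Anti-CTLA-4 pool or any 1 of the 3 antibody pools without PancVAX. In cycling cells, Itga1 lost it in either preparation alone and without the PancVAX, PancVAX + Anti-CTLA-4, Anti-PD-1, or Anti-PD-1 + Anti-CTLA-4 pool, and Itga4 without the PancVAX + Anti-PD-1, PancVAX + Anti-CTLA-4, or Anti-CTLA-4 pool. Itga1 and Itga4 in cycling cells and Itgb2 in stem-like cells were also not called by DESeq2 or with no replicate block. Without TMM factors both genes in cycling cells were lost, and Itga4 there also with no filter on low counts and in whole tumor libraries alone. Itgb2 in stem-like cells was lost with a mitochondrial limit of 5% and in whole tumor libraries alone, and Itga1 in naive-like cells in Percoll libraries alone. Over the alternatives, the log2 differences of Itgb7 and Itgb1 in cycling cells were as low as 0.46 and 0.40.

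The size of T cell clones gave a measure that does not come from expression. In the 8 Percoll libraries 4546 CD8+ T cells had a TRB chain, of which 1926 belonged to clones of 5 or more cells in their library and 1432 were alone. Itgav, Itga1, Itga4, and Itgae were called between them, against 10.2% of 8013 genes. Itgb7, Itgb1, and Itgax were not counted, since the CD8+ values that chose them enter. Itgav lay between 128 and 275 CPM in the expanded clones (median 216) and between 54.6 and 113 in single cells (median 89.7), with no overlap (log2 difference 1.11, SE 0.09, adjusted P = 2.78e-07). Itga1 (0.75, SE 0.16, adjusted P = 0.0024) and Itga4 (0.51, SE 0.13, adjusted P = 0.00883) were also higher in 8 of 8 libraries. Itga4 lost its call without the Anti-PD-1 or without the Isotype Control library. The alphaV, alpha1, and alpha4 messages were thus higher in expanded clones.

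The chains of the E-cadherin receptor went the other way. Itgae lay between 0 and 16.3 CPM in expanded clones (median 3.42) and between 19.0 and 38.8 in single cells (median 25.9), with no overlap (log2 -2.20, SE 0.35, adjusted P = 0.000242). Without a test, Itgb7 was lower in the expanded clones of all 8 libraries, at 14.7 to 264 (median 98.0) against 126 to 347 (median 242, log2 -1.45, SE 0.27). The libraries with PancVAX lay at 159 to 264 in expanded and 285 to 347 in single cells, those without at 14.7 to 37.1 and 126 to 199, and whether the difference in log2 changes with the vaccine was not tested. Itgb1 was also lower in the expanded clones of 8 of 8 libraries (-0.39, SE 0.06), without a test. The clones also differed in state: 2.80% of expanded cells were naive-like, 9.35% effector-like, and 11.3% terminally exhausted-like, against 25.6%, 25.3%, and 4.19% of single cells. Cells of no state were 63.9% of expanded and 31.5% of single cells. The part of these states in the differences was not tested.

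**Figure D4:**
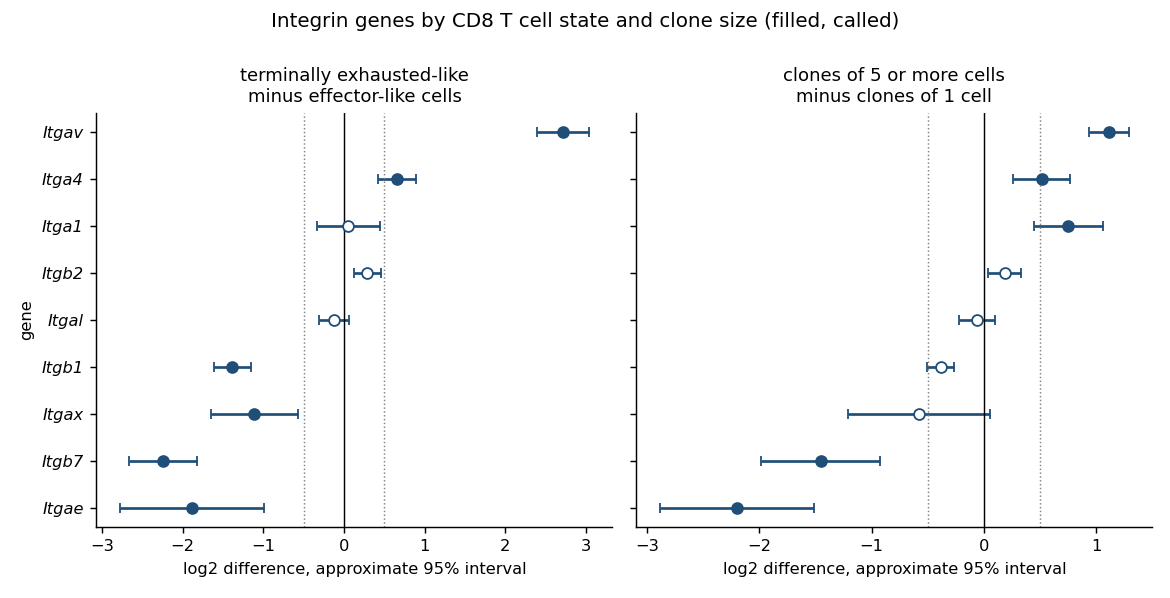
Log2 difference with its approximate 95% interval, from the SE, of each integrin gene between terminally exhausted-like and effector-like CD8 T cells (left, 8 pools) and between clones of 5 or more cells and clones of 1 cell (right, 8 Percoll libraries). Filled points passed the limits of a call, and dotted lines mark 0.5 in either direction. Itgb7, Itgb1, and Itgax are drawn in the same way but described without a test. Nothing is read from the fill or the interval of these genes, since the CD8+ values that chose them enter. Itgav lies to the right and Itgb7 and Itgae to the left in both panels.

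Outside CD8+ T cells the effect of PancVAX was tested in 6 gates, with each antibody as a further factor. Calls were made in CD4+ helper T cells only. There, with Itgb7 left out, 2 of the 6 genes that passed the filter on low counts were called, 1 higher and 1 lower, against 1.4% of 5410 genes, 1.02% higher and 0.388% lower. Itgb1 was at 694, 641, 563, and 560.2 CPM with PancVAX alone, with anti-PD-1, with anti-CTLA-4, and with both. Without the vaccine it was at 309, 312, 262, and 304. It rose by a log2 of 1.03 (SE 0.12, adjusted P = 0.000568), with no overlap between the groups, which 7.95% of all genes shared, and was called without any 1 of the pools.

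Itgb7 was at 523, 464, 385, and 369 CPM with PancVAX alone, with anti-PD-1, with anti-CTLA-4, and with both. Without the vaccine it was at 150.0 in Isotype Control, 264 in Anti-PD-1, 134 in Anti-CTLA-4, and 298 in Anti-PD-1 + Anti-CTLA-4. The groups did not overlap (log2 1.04, SE 0.20). Itgav was at 68.5, 121, 106, and 196 with the vaccine and at 323, 169, 202, and 330.4 without, in the same order of antibodies. It fell by 1.07 on the log2 scale (SE 0.24, adjusted P = 0.035), although the pool with all 3 agents lay above 1 pool without the vaccine. Itgav was no longer called without the Anti-CTLA-4 pool, without the Isotype Control pool, with no upper limits on UMIs and genes, with no covariates, in whole tumor libraries alone, and without the PancVAX, PancVAX + Anti-PD-1, PancVAX + Anti-CTLA-4, or Anti-PD-1 + Anti-CTLA-4 pool. Beside these values, the 10 macrophage markers summed to 249 to 419 CPM in helper cells with PancVAX and 237 to 327 without, with 6 of 10 higher on average. The 7 T cell markers summed to 3528 to 4009 with PancVAX and 4196 to 5056 without, with 5 lower and 2 at 0, and the 5 B cell markers to 41.3 to 82.3 and 89.1 to 150.0, with 3 lower and 2 at 0, both without overlap. Their part was not tested. Helper cells were set at 0 UMIs of Foxp3, so Tregs in which Foxp3 was missed fall into this gate. The gates held 778 helper cells and 282 Tregs with PancVAX, and 315 and 196 without. Tregs had lower Itgb1 and higher Itgav and Itgb7 than helper cells. The part of missed Tregs in these differences was not tested.

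The other helper cell values overlapped or were low. Itga4 was at 143 ± 30.4 CPM with the vaccine and 174 ± 51.4 without, Itgb2 at 277 ± 37.3 and 281 ± 29.0, and Itgae at 28.1 ± 6.16 and 29.3 ± 17.4. Itgal was at 148 ± 19.6 and 188 ± 27.1. Itga1 was too low for the fit, with 51 UMIs in all. Its pools lay at 18.3, 23.6, 13.2, and 8.97 with PancVAX and at 4.55, 0, 0, and 6.48 without, and with no filter on low counts it was called. In cells thinned to 1500 UMIs, Itga1 was detected in 3.09% of helper cells with PancVAX and in none of 300 without, which allows up to 1% of such cells to hold a UMI of it.

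**Figure D5:**
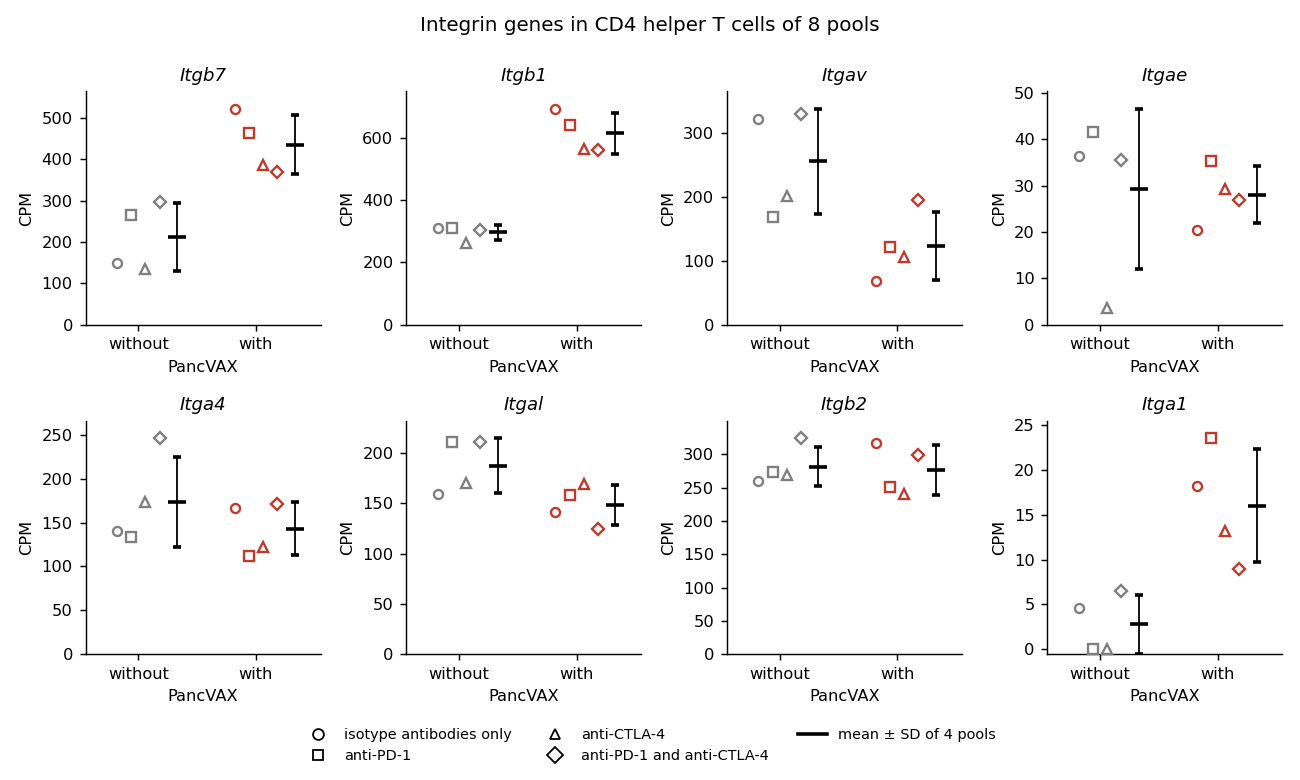
CPM of 8 integrin genes in CD4 helper T cells, with pools without PancVAX in gray and with it in red, antibodies as symbols, and mean ± SD of 4 pools. Itgb7 and Itgb1 separate between the groups, Itgav is lower with overlap, and the other genes that were tested overlap.

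In Tregs, NK cells, macrophages, monocytes, and neutrophils none of the 35 tests of PancVAX was called by edgeR, and 6 had an unadjusted P below 0.05. The share of all genes called was 0.229%, 0%, 0%, 0.0713%, and 0.231%. Itgb7 in Tregs was at 582 ± 104 and 482 ± 69.4 CPM (log2 0.23, SE 0.15, adjusted P = 0.723). In NK cells Itgax was at 145 ± 28.4 and 143 ± 22.0, and Itgb1 at 572 ± 69.6 and 464 ± 59.1 (adjusted P = 0.675). In macrophages Itgav lay at 81.5 to 104 with PancVAX and 67.8 to 78.8 without, apart but short of the threshold (log2 0.32, SE 0.08, adjusted P = 0.197), and Itgb1 at 184 to 193 and 160.5 to 169 (0.15, SE 0.06, adjusted P = 0.331). The groups did not overlap for 6.91% of all genes in macrophages.

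Whether the effect of PancVAX differed between helper cells and another gate was tested in 1 fit with the pool as a block, an analysis added after the helper cell result was known. Of 45 differences, 5 of them on Itgb7 and not read here, 4 passed an adjusted P of 0.05, whereas of 6626 genes 0.0151% passed in Tregs and in NK cells, 0.483% in macrophages, 0.287% in monocytes, and 0.272% in neutrophils. The effect on Itgb1 was lower than in helper cells in macrophages (log2 difference of effects -0.91, adjusted P = 0.000906), monocytes (-1.24, adjusted P = 0.000257), and neutrophils (-0.97, adjusted P = 0.0115). The effect on Itgav was higher in macrophages by 1.32 (adjusted P = 0.00341). Against Tregs the differences for Itgb1 (-0.86, SE 0.25, adjusted P = 0.263) and Itgav (1.19, SE 0.27, adjusted P = 0.12) did not pass, nor did Itgb1 in NK cells (-0.82, SE 0.18, adjusted P = 0.0901), which does not show that the effects were alike.

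The antibodies moved no integrin past the threshold. For anti-PD-1 0 of 51 tests in 7 gates were called by edgeR, 3 had an unadjusted P below 0.05, and the smallest adjusted P was 0.906. For anti-CTLA-4 0 of 51 were called, 8 had an unadjusted P below 0.05, and the smallest adjusted P was 0.352. DESeq2 also called 0 for each. The share of all genes called in CD8+ T cells, CD4+ helper T cells, Tregs, NK cells, macrophages, monocytes, and neutrophils was 0%, 0.0185%, 0.0509%, 0%, 0%, 0.0238%, and 0.216% for anti-PD-1 and 0%, 0.037%, 0.0254%, 0.0301%, 0%, 0.0238%, and 0% for anti-CTLA-4, in that order. In CD8+ T cells the estimates lay between -0.17 and 0.23 for anti-PD-1 and between -0.12 and 0.20 for anti-CTLA-4, and for Itgb7 the approximate 95% interval, from the SE, ran from -0.26 to 0.01 and from -0.20 to 0.08. Intervals were wider in the small gates. In monocytes Itgal was at 68.2 ± 7.66 CPM with anti-CTLA-4 and 117 ± 25.6 without (log2 -0.78, SE 0.20, adjusted P = 0.352), and in Tregs Itgb7 at 459 ± 41.9 and 605 ± 79.4 (-0.40, SE 0.15, adjusted P = 0.951).

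None of the 50 tests of Percoll against whole tumor libraries was called by edgeR or by DESeq2, while 4.87%, 2.82%, 1.46%, 3.83%, 4.06%, 2.94%, and 13.6% of all genes were called in the 7 gates, in the order given for the antibodies. The widest estimates were 0.22 in size in CD8+ T cells and 0.55 in NK cells. Itgb1 in CD8+ T cells (-0.19, adjusted P = 0.022), Itga4 in macrophages (-0.28, adjusted P = 0.0131), and Itgax in neutrophils (0.31, adjusted P = 0.0186) passed the test on P but not the limit on size. In whole tumor libraries alone Itgb7 in CD8+ T cells was at 285 ± 29.3 CPM with PancVAX and 64.7 ± 9.13 without, and in Percoll libraries alone at 275 ± 45.1 and 61.5 ± 4.68. Itgax was at 37.4 ± 4.29 and 3.23 ± 1.28 in whole tumor libraries (log2 3.18) and at 32.6 ± 3.39 and 4.78 ± 1.03 in Percoll libraries (log2 2.54), and Itgal did not overlap in whole tumor libraries and overlapped in Percoll libraries. The effect of an agent was also compared between preparations over the 16 libraries, without the treatment as a block. PancVAX in CD8+ T cells was left out of this comparison. Of 141 such differences, 0 passed an adjusted P of 0.05 by edgeR and 5 had an unadjusted P below 0.05.

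Genes that act with the integrins were followed as lists. In helper cells with PancVAX, 2 of 6 ligand genes were called, against 1.4% of all genes: Icam1, the ligand of LFA-1, rose by 0.99 (SE 0.19, adjusted P = 0.0165), and Spp1, the secreted ligand osteopontin, fell by 1.90 on the log2 scale (SE 0.36, adjusted P = 0.0148). Of 18 activation genes 2 were called, both higher. Rasgrp2, the exchange factor that loads Rap1, rose by 0.78 (adjusted P = 0.0488) and Zyx, a protein of adhesion sites, by 0.76 (adjusted P = 0.0337). Of 17 homing and residency genes 3 were called, 2 higher and 1 lower. The list medians were 0.26, -0.00, and 0.10, against -0.01 over all genes tested, and none of the lists, the 17 other integrins included, had a called gene in the other 5 gates.

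In CD8+ T cells, again without a test, the pools did not overlap for 4 of 11 ligand, 8 of 22 activation, 9 of 21 homing, and 1 of 9 other integrin genes, against 26.5% of all genes. Of the activation genes 6 were higher and 2 lower, of the homing genes 8 and 1, and the others were higher. The genes named from these were chosen after their values were seen. Rasgrp2 was at 76.9 ± 4.06 CPM with PancVAX and 29.0 ± 7.68 without, and S1pr1, the receptor for exit into lymph, at 133 ± 13.0 and 24.7 ± 6.40. Cxcr3, a chemokine receptor of effector T cells, was at 94.4 ± 7.28 and 25.0 ± 2.86. Vcam1, the ligand of VLA-4, was at 46.2 ± 47.5 and 11.0 ± 3.52, with a wide spread between vaccinated pools (15.5 to 117), and Icam1 was at 93.4 ± 11.6 and 52.5 ± 2.46. The activation genes that were lower were Ptk2b, a kinase of the focal adhesion family, at 99.3 ± 8.27 and 133 ± 9.16, and Rap1a, at 199 ± 9.70 and 245 ± 4.93, whereas its paralog Rap1b was higher, at 385 ± 40.3 and 237 ± 6.88. Runx3, a transcription factor of resident T cells, was the lower homing gene, at 188 ± 14.5 and 221 ± 5.32. The other integrin was Itgam, the alphaM chain, at 7.29 ± 2.22 and 1.77 ± 0.66, and the macrophage and neutrophil marker sums given beside Itgax apply to it too.

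Some partners of alphaV, chosen after their values were seen, were set beside it, and others are not given. Itgb8, whose product joins alphaV in activating TGF-beta, was higher in Tregs than in helper cells by a log2 of 2.21 (SE 0.36), as was Lrrc32, which holds latent TGF-beta on the Treg surface, by 2.80 (SE 0.38). Itgb3, another partner of alphaV, was higher in terminally exhausted-like than in effector-like cells by 1.23 (SE 0.29) and in expanded than in single clones by 0.81 (SE 0.25, adjusted P = 0.0309). Spp1, a ligand of alphaV, was higher in expanded clones by 1.89 (SE 0.22). These genes were called in edgeR's quasi-likelihood test, and Itgb3 was lower in Tregs than in helper cells (-0.85, SE 0.26). Of all genes, 12% were called between Tregs and helper cells, 17.4% between those states, and 10.2% between the clones. Itgb1, counted above as a pair with Itgav, went the other way. It was lower in Tregs and, without a test, in terminally exhausted-like cells and expanded clones.

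Over the 15 gates, the genes whose level went most with each member were sought among 9777 genes, as a description. Itgax went with Tyrobp (r = 0.927) and Fcer1g (0.915), adaptors of innate immune receptors, and with Scimp (0.882). Itgb2 went with Pstpip1 (0.973), Itga4 with Gpr132 (0.971), and Itgal with Rhoh (0.917), all expressed in leukocytes. Itgb7 went with Rbm3 (0.902), Itgav with Hacd3 (0.925), Itgb1 with Sema4c (0.879), Itga1 with Kcnj8 (0.859), and Itgae with Tnp2 (0.819). The gates share libraries and differ in depth and cell number, and few gates carry each value.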

How the data were processed

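The authors deposited 1 matrix of UMI counts for 16 5′ libraries and T cell receptor tables for the 8 Percoll libraries, and the submitters' processing notes name Cell Ranger 4.0.0, mm10, and Seurat. Each cell was tied to its library by the barcode suffix. Cells with 200 to 3000 genes, 1000 to 10000 UMIs, under 10% mitochondrial UMIs, and no hemoglobin UMI were kept and gated on marker UMIs. No doublet caller was run. UMIs were summed per gate and pool of treatment, with at least 10 cells per pool, using Python 3.11.15, numpy 2.4.6, pandas 2.3.3, and scipy 1.17.1, and figures were drawn with matplotlib 3.10.9. Reads of both preparations of a treatment entered the same sum, and no source used here says whether those preparations hold tissue of the same animals.

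The sums were tested with the quasi-likelihood test of edgeR 4.0.16 (limma 3.58.1, R 4.3.3) with TMM factors, a filter on low counts, and Benjamini-Hochberg adjustment over all genes tested. The vaccine and both antibodies were fitted as 3 additive factors over 8 pools. Contrasts of gates, states, preparations, and clone classes had the pool or library as a block, because both arms come from the same pool or library, or, for preparations, from the same treatment. Alternatives were DESeq2 1.42.0, no filter, no TMM factors, a mitochondrial limit of 5%, no upper limits, each preparation alone, 16 libraries with preparation as a covariate, no covariates, no block, clones of 2 or more cells, and leaving out each pool. The fits were tested on counts simulated with 2-fold changes in many genes at once. In Tregs 197 changed genes passed the filter, whereas 9 of 3933 genes were called for PancVAX in the data. A cut on adjusted P is looser when many genes change, so the rates may be too high for a single gene. For PancVAX 48.5% of the changed genes were called in Tregs, 57.5% in helper cells, 60% in NK cells, and 63.5% in monocytes. In neutrophils 72.5% were called, and in macrophages 81.5%. False calls were 3% to 8% of the calls in these gates. For the effect of PancVAX in Tregs against helper cells 22.5% were called.

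The members and all gene lists were chosen with earlier results of these data known, including higher Itgb7 in CD4+ T cells with PancVAX. The rule for named genes was the 9 members, of each list the 4 called genes with the largest changes, and for each member the genes most like it over the gates, of which at most 3 are given. List genes are named for PancVAX in helper cells. Those named in CD8+ T cells, and the partners of alphaV, were chosen after their values were seen, and other called list genes are not named. The values of the called homing genes are not reported here. Intervals and limits for shares of 0 (3 cells) cover counting error only.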

Additional observations from a re-analysis of the deposited data

Results flagged for a closer look

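In 7 of 102 groups of 4 pools, 1 pool lay apart from the other 3 by Dixon's test at the 95% level, where chance alone marks about 1 group in 20. In CD8+ T cells these were Itgb1 in the PancVAX + Anti-CTLA-4 pool, at 556 CPM against 457 to 470.3 in the other vaccinated pools, and Itgb7 in the Isotype Control pool, at 74.3 against 58.8 to 60.2 in the others without PancVAX.

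Among the pools without PancVAX, the Anti-CTLA-4 pool was low for Itgae in CD4+ helper T cells, at 3.54 CPM against 35.6 to 41.6, which rests on 1 UMI in 82 cells. In the same cells it was low for Itgb1, at 262 against 304 to 312. In Tregs it was low for Itgb2, at 139 against 241 to 255, on 17 UMIs in 34 cells. In NK cells, Itgb1 was high in the Anti-PD-1 pool, at 552 against 424 to 444, and in neutrophils Itga4 was high in the Isotype Control pool, at 135 against 90.9 to 98.0.

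The effect of PancVAX differed from that in CD4+ helper T cells by an interaction term for 4 pairs of gene and gate, as log2 differences of effects, where 0.483% of 6626 genes passed in macrophages, 0.287% in monocytes, and 0.272% in neutrophils. They were 1.32 for Itgav in macrophages, -0.91 for Itgb1 in macrophages, -1.24 for Itgb1 in monocytes, and -0.97 for Itgb1 in neutrophils. These rest on the helper cell values, which were known when the test was added.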

How the results depend on the processing

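Of 68 called comparisons of a member, those described in the report without a test included, 38 kept their call under every alternative that gave a value, 30 lost it under at least 1, and 0 changed direction. The counts below include those described without a test too, and nothing is read from their calls. The 3 calls for PancVAX outside CD8+ T cells, which include the Itgb7 difference known beforehand, became 1 with no upper limits on UMIs and genes, where Itgb1 remained, and 1 to 3 when a pool was left out, with 1 without the Anti-CTLA-4 or the Isotype Control pool. They were 4 with no filter on low counts, 2 with no covariates, and 3 both with preparation as a covariate and with no replicate block over the 16 libraries. Called gate contrasts were 41, with 36 to 39 without 1 pool, 38 with no replicate block, and 30 and 31 in whole tumor and Percoll libraries alone. Called state contrasts were 19, with 16 to 19 without 1 pool, 15 by DESeq2, and 14 with no replicate block, and called clone contrasts were 5, with 4 to 5 without 1 library and 4 with no replicate block, where Itgb7 was lost. The causes of these changes were not tested. Without TMM factors the median over all genes moved by over 0.1 on the log2 scale for CD8+ T against CD4+ helper T cells (-0.12), CD8+ T against NK cells (-0.17), Tregs against helper cells (0.13), neutrophils against macrophages (-0.21), and naive-like against effector-like cells (-0.11). Clones within terminally exhausted-like cells gave no value, since fewer than 2 libraries had 10 cells in both classes. Pools held 34 to 82 Tregs and 30 to 70 NK cells.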
